A study of Mus musculus with 16 samples.

Results

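The mitochondrial ribosomal protein genes are 78 of the 55487 genes measured in skeletal muscle, 49 with Mrpl symbols and 29 with Mrps symbols. They were taken by name alone, as every gene whose symbol starts with Mrpl or Mrps followed by a digit, and 6 symbols with the pseudogene ending -ps were left out. RNA-seq was carried out on muscle of CHCHD4 Tg mice (Tg) that had treadmill training, wild-type (WT) mice that had it, Tg mice without it and WT mice without it, with 4 libraries in each group. The 4 groups share no other stated allele or agent, and the question was which transcripts go with CHCHD4, a protein of the mitochondrial intermembrane space, and with training. The labels give neither the promoter of the transgene nor the muscle, the strain, the age, the length of training or whether libraries came from separate animals, so a p-value measures the spread between libraries.

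Mitochondria have ribosomes of their own, which translate the few proteins encoded by mitochondrial DNA. Those proteins are core subunits of the respiratory chain and of the ATP synthase, on which the endurance of muscle depends. The ribosomal RNAs are transcribed from mitochondrial DNA, whereas all the ribosomal proteins are encoded in the nucleus, made in the cytosol and imported. Mrpl genes encode proteins of the large subunit, which forms the peptide bonds, and most Mrps genes those of the small subunit, which decodes the messenger RNA. The exceptions are Mrps18a and Mrps30, of the large subunit, and Mrps36, which is not ribosomal. Sums and medians of Mrpl and Mrps genes below go by name. Some are relatives of bacterial ribosomal proteins and others were added during the evolution of mitochondria.

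Total counts ranged from 40888325 to 61703724 per library, and the 78 genes together held 46952 to 70459 of them. A single gene had between 116 and 3760 counts in a library, so all 78 passed the filter on low counts and were among the 17490 genes tested. CPM are counts divided by the library size, which TMM corrects for differences in library composition. Chchd4 averaged 21.8 ± 0.306 CPM in Tg trained and 20.3 ± 1.68 CPM in Tg untrained libraries, against 8.14 ± 0.671 CPM in WT trained and 7.90 ± 0.885 CPM in WT untrained libraries (SD, n = 4 each). Markers of skeletal muscle fibres, such as Ckm and Acta1, the creatine kinase and the actin of muscle, were the most abundant of the marker lists in every library, under the label skeletal muscle. WT untrained replicate 2 stood apart: its 8 muscle fibre markers summed to 123900 CPM, against 177600 to 184400 CPM in the other WT untrained libraries, and its TMM factor was the highest, 1.285. Alb, a liver transcript, was above 10 CPM in WT trained replicate 4, Tg untrained replicate 2 and WT untrained replicate 2. Myh7, the slow-twitch myosin, was above 10 CPM in WT trained replicate 3, Tg untrained replicates 2 and 3 and WT untrained replicate 2.

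The 78 genes lie on 17 chromosomes of GRCm38, with 11 on chromosome 11 and 8 on chromosome 17. A gene on the other strand that starts within 1000 bases and runs the opposite way was annotated for 18 of the 78 (23.1%), against 9.59% of 13570 tested protein-coding genes. Such pairs include Mrps12 with Sars2, the mitochondrial seryl-tRNA synthetase, whose starts are 172 bases apart, and Mrpl32 with the proteasome gene Psma2, at 75 bases. Mrps11 and Mrpl46 overlap each other, and 42 of the 78 overlap some annotated gene, 36 of them a gene on the opposite strand. No source used here says whether counting used strand, so values of overlapping genes may hold reads of their neighbours.

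Start-site windows from RefSeq (GRCm38.p6, 250 bases before to 50 after the start, 300 in all) were found for 69 of the 78 genes. The printed windows belong to Mrps17, the gene called in a comparison below, Mrpl42, the gene with the highest level per kilobase, Mrpl12, the gene that varied most, and Mrps21 and Mrps18a, which hold a pair of the motifs searched. Capitals mark the letters of NRF1 (GCGCA, then any base, then GCGC), GABPA of the ETS family (CCGGAAG) and YY1 (AAGATGGCG), factors known to bind promoters of nuclear genes for mitochondrial proteins, searched on both strands. All are written 5′ to 3′ on the strand of the gene, which is plus for Mrps17 (chr5:129715247-129715546), Mrpl12 (chr11:120484387-120484686) and Mrps18a (chr17:46110754-46111053) and minus for Mrpl42 (chr10:95501900-95502199) and Mrps21 (chr3:95871465-95871764).
Mrps17: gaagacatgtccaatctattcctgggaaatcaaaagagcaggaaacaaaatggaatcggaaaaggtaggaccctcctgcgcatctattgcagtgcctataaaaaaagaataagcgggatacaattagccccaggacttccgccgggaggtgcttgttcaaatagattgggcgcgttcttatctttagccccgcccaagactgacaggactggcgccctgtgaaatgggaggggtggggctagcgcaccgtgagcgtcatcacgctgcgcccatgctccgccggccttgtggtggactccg
Mrpl42: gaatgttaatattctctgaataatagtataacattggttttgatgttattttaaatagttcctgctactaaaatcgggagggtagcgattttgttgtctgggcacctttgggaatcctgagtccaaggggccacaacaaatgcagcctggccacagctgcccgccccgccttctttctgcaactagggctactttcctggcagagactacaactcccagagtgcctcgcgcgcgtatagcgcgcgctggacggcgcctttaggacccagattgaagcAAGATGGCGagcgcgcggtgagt
Mrpl12: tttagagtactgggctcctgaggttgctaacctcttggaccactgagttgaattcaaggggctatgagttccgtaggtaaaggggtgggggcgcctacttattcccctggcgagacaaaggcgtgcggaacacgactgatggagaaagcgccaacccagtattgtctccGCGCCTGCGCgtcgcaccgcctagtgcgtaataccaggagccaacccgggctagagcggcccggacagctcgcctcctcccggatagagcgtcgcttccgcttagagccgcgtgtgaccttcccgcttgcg
Mrps21: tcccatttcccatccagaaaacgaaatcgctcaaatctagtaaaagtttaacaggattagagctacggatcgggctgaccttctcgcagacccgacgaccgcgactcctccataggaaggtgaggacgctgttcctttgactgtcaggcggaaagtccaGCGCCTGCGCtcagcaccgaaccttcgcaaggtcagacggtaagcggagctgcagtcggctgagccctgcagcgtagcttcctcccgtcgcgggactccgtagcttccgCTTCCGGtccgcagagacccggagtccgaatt
Mrps18a: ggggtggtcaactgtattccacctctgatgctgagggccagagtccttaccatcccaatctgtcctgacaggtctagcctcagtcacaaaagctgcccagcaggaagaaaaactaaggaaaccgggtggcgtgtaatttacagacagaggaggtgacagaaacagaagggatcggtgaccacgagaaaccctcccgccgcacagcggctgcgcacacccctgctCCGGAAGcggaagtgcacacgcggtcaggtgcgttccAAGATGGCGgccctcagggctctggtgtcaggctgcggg
The Mrps21 window holds NRF1 letters, read on the opposite strand, 91 to 82 bases before the start and GABPA letters after it, and the Mrps18a window holds GABPA letters before the start and YY1 letters after it. The Mrpl42 window holds YY1 letters 27 to 35 bases after the start, the Mrpl12 window NRF1 letters 81 to 72 bases before it, and the Mrps17 window none of the 3. NRF1 letters were present for 13 of the 69 genes (18.8%), against 10.9% of 10639 tested protein-coding genes with a window and 4.60% of all 32851 windows. GABPA letters were present for 26 (37.7%), against 18.9% and 8.86%, and YY1 letters for 8 (11.6%), against 3.36% and 1.40%. At least 1 of the 3 was found for 41 genes (59.4%), against 29.5% of the tested protein-coding genes, and no hits of different motifs overlapped in a window of the 69 genes. SP1 letters (GGGCGG), a common GC box, went the other way, with 34 genes (49.3%) against 67.1%. TATA letters (TATAAA) were present for 5 genes (7.25%), against 9.3%, and E-box letters (CACGTG) for 5 (7.25%), against 11.5%. CREB letters (TGACGTCA) were present for 2 (2.9%), against 3.41%. Letters of the estrogen-related receptor ERRA (TNAAGGTCA) were in none of the 69, against 0.874%. These shares are descriptions of letters in a fixed window and were not tested.

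Per kilobase of transcript, which is the scale on which genes can be compared, the 78 genes had a median level of 11.3 CPM per kilobase over the 16 libraries, and 51 lay within 2-fold of it. The highest level per kilobase was that of Mrpl42 at 93.5 CPM per kilobase, followed by Mrps21 at 57.0, Mrpl30 at 42.4, Mrpl33 at 38.9 and Mrps36 at 29.3. Mrps36 keeps a ribosomal name, but its product is known as a component of the 2-oxoglutarate dehydrogenase complex. The lowest levels per kilobase were those of Mrps35 at 2.04, Mrps26 at 2.08, Mrpl19 at 2.42, Mrps25 at 2.96 and Mrpl57 at 3.27 CPM per kilobase. These 5 low genes have long annotated transcripts, with median lengths of 2877 to 6073 bases against 1224.5 over the 78, so their level per kilobase depends on which transcript was expressed. With the shortest annotated coding transcript in place of the median length, the lowest 5 were the same genes and 4 of the highest 5 were. Mrpl and Mrps genes had median levels of 11.5 and 10.3 CPM per kilobase. Relatives of bacterial proteins (48 genes) had a median of 12.2, and the 29 proteins added in mitochondria one of 8.08 CPM per kilobase.

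**Figure D1:**
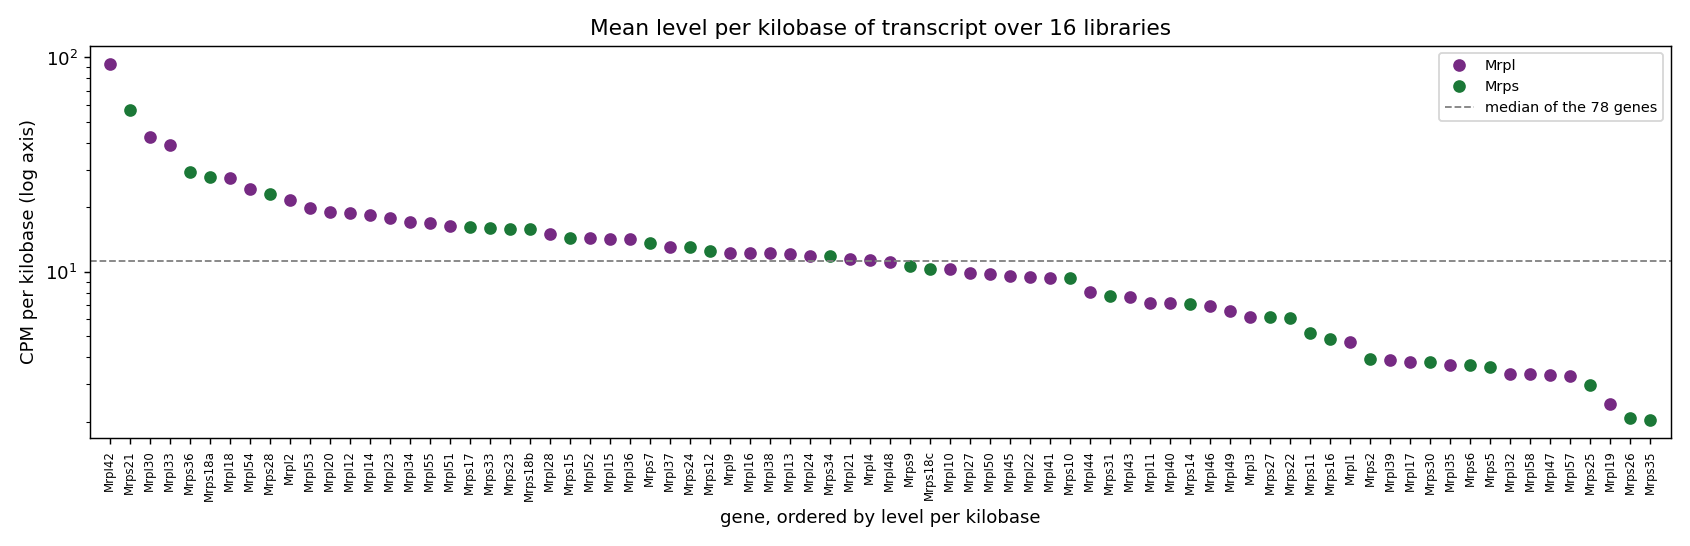
Mean level of each of the 78 genes over 16 libraries in CPM per kilobase of transcript, on a log axis, ordered from high to low; purple points are Mrpl and green points Mrps genes, and the dashed line is the median of 11.3. Mrpl42 lies highest at 93.5 and Mrps35 lowest at 2.04, and Mrpl and Mrps genes are mixed along the order.

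Summed over the 49 Mrpl genes, the 4 Tg trained libraries held 848.7, 834.5, 826.1 and 857.6 CPM and the 4 WT trained libraries 872.6, 823.2, 829.6 and 758.5 CPM. The Tg untrained libraries held 782.5, 752.9, 693.9 and 813.8 CPM, and the WT untrained libraries 823.5, 639.2, 830.2 and 829.9 CPM. Every Tg trained library lay above every Tg untrained one, whereas the 2 WT groups overlapped and 1 WT untrained library, replicate 2, lay below all others. The 29 Mrps genes summed to 401.6 ± 4.63 CPM in Tg trained, 398.5 ± 16.7 in WT trained, 367.5 ± 19.7 in Tg untrained and 381.2 ± 31.0 CPM in WT untrained libraries (SD, n = 4 each). The ratio of the Mrpl sum to the Mrps sum stayed between 1.907, in WT untrained replicate 2, and 2.118, in Tg trained replicate 4. In bulk muscle, fewer cells of a type and less RNA per cell cannot be told apart.

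**Figure D2:**
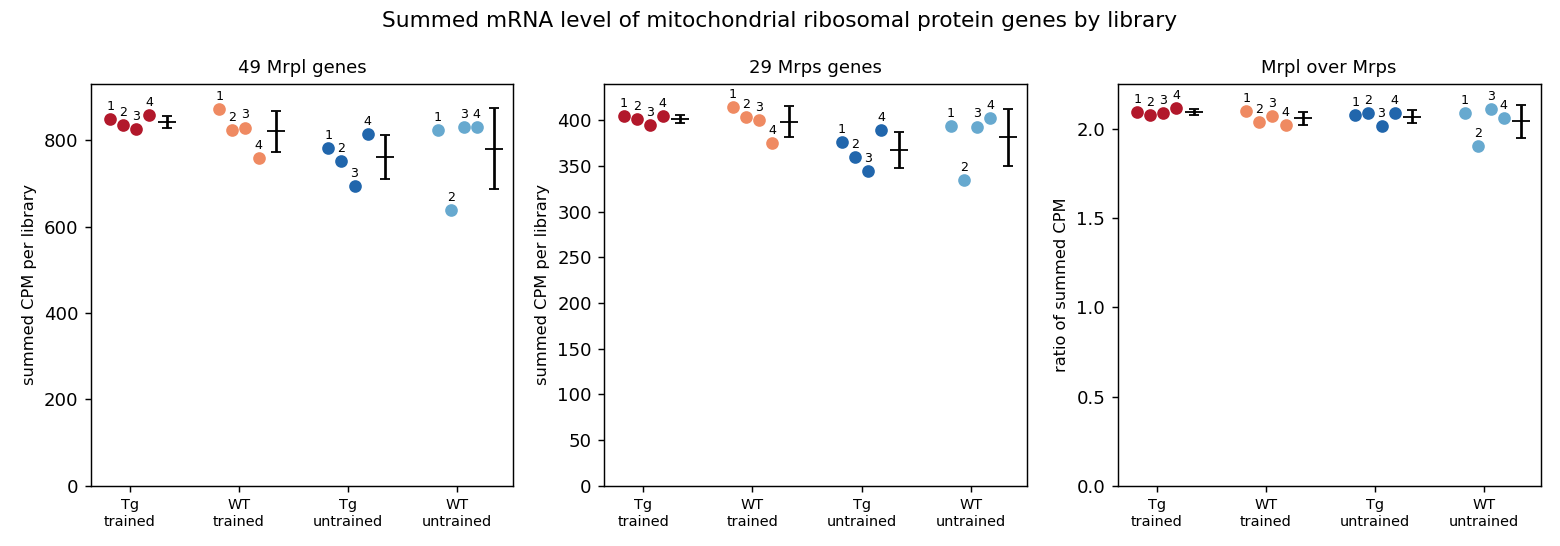
Summed CPM of the 49 Mrpl genes and of the 29 Mrps genes, and the ratio of the sums, in each library; numbers are replicates, and bars show the mean and SD of 4 libraries per group. The Tg trained libraries lie close together and above the Tg untrained ones in both sums, and WT untrained replicate 2 lies lowest at 639.2 and 335.1 CPM.

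Gene by gene, the libraries also differed as wholes. In the 4 Tg trained libraries 10, 17, 25 and 13 of the 78 genes lay below their own mean over all libraries, and in the WT trained libraries 8, 22, 16 and 62 did. In the Tg untrained libraries 53, 67, 75 and 40 genes lay below their mean, and in the WT untrained libraries 28, 65, 20 and 15. Thus most genes were low in WT trained replicate 4, in all 4 Tg untrained libraries, though by a small majority in replicate 4, and in WT untrained replicate 2. WT untrained replicate 2 was the lowest of the 16 libraries for 46 of the 78 genes, and WT trained replicate 1 the highest for 20. Across the 16 libraries the coefficient of variation ran from 3.41% for Mrps25 to 17.1% for Mrpl12. Its median was 8.85%, against 9.36% for 8250 tested genes in the same range of mean CPM.

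**Figure D3:**
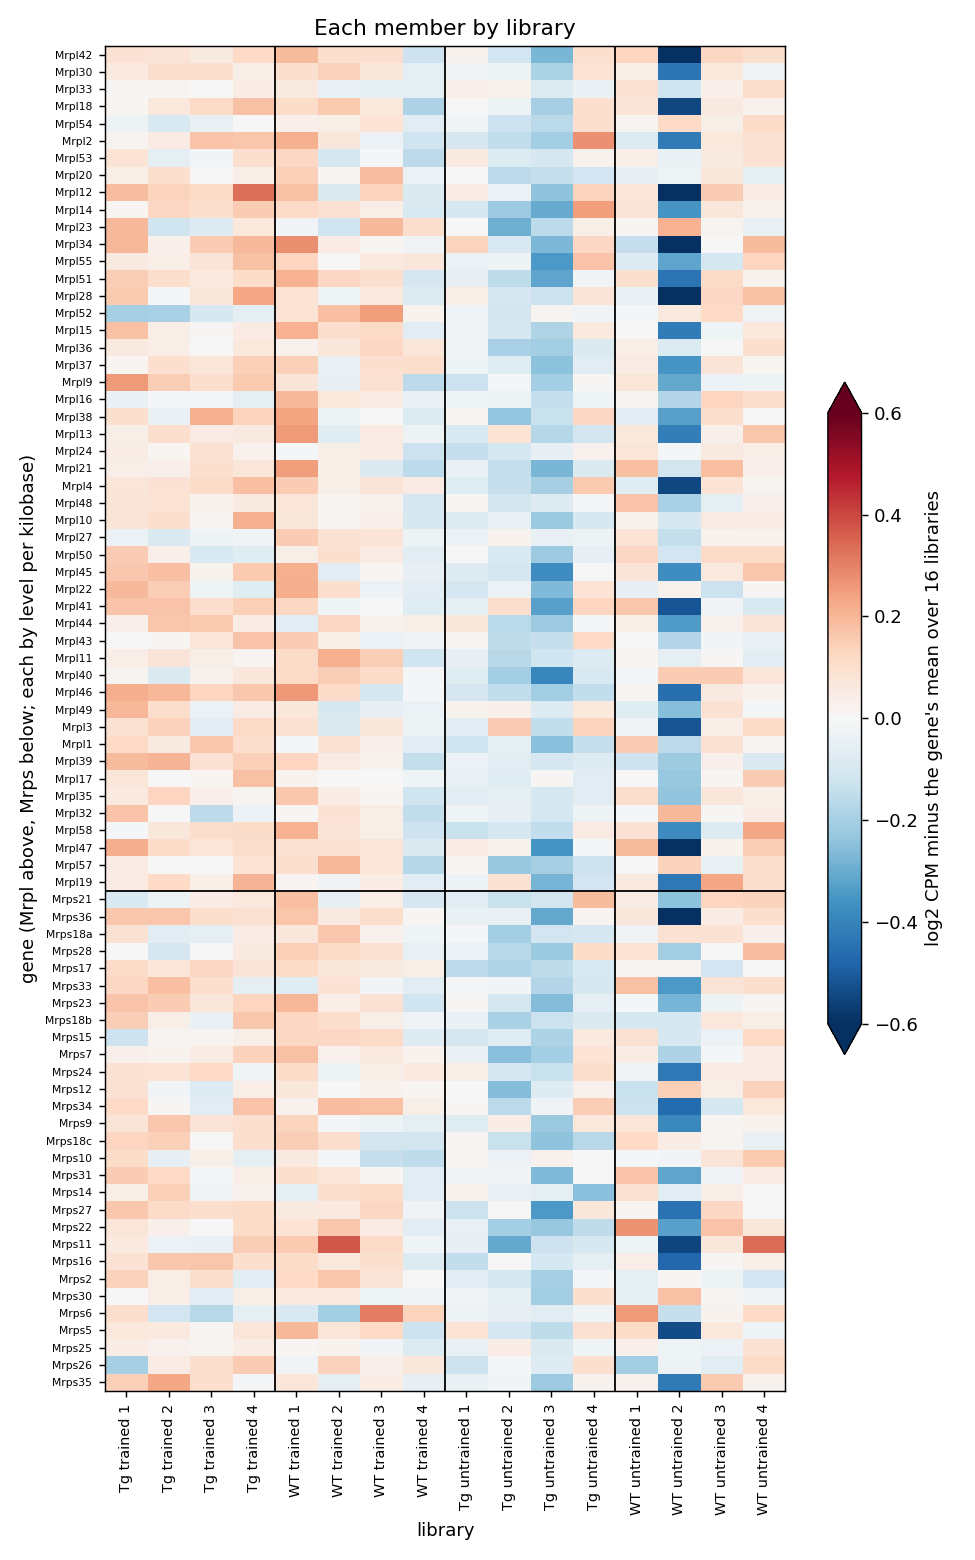
Log2 CPM of each gene minus its own mean over 16 libraries, with Mrpl genes above and Mrps genes below the line and libraries in 4 blocks by group; red is above and blue below the mean, and colours end at the scale's limits. Red prevails in the Tg trained block and blue in Tg untrained, and the darkest column is WT untrained replicate 2.

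In Tg mice, trained muscle had higher levels of nearly all these mRNAs than untrained muscle, by small amounts, and no gene passed the test. The log2 fold change was above 0 for 75 of the 78 genes, against 50.6% of all tested genes, and its median was 0.145, against 0.00237 over all tested genes. The 78 genes tended to be high or low together within a library, so counts of signs here and below are not of independent genes. After Benjamini-Hochberg adjustment in edgeR's quasi-likelihood test 0 of the 78 were called, as were 0.0% of all genes; at an unadjusted p under 0.05 there were 21 (26.9%), all higher, against 11.1% of all genes in either direction and 4.27% higher. DESeq2 called 1 of the 78, Mrps17, and 126 of all tested genes. For 22 genes (28.2%) every Tg trained library lay above every Tg untrained one, against 4.65% of all tested genes, and for 0 it was the reverse, against 4.53%. The 22 were named after their values were seen: Mrpl1, Mrpl9, Mrpl10, Mrpl11, Mrpl21, Mrpl35, Mrpl36, Mrpl37, Mrpl39, Mrpl45, Mrpl46, Mrpl47, Mrpl48, Mrpl51, Mrps9, Mrps11, Mrps16, Mrps17, Mrps22, Mrps23, Mrps27 and Mrps36. Mrpl and Mrps genes had the same median of 0.145; relatives of bacterial proteins had one of 0.135 and mitochondrial additions one of 0.156.

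Mrps17, a relative of bacterial protein S17 of the small subunit, measured 15.2, 14.7, 15.3 and 14.8 CPM in Tg trained libraries, against 12.54, 12.3, 12.6 and 13.2 CPM in Tg untrained ones. The groups were apart by more than 1 CPM, and the log2 fold change of 0.24 (SE 0.047) had an adjusted p of 0.132 in edgeR. Mrpl1, a relative of bacterial L1, measured 17.6, 16.8, 18.1 and 17.3 CPM in Tg trained libraries, against 14.9, 15.5, 13.6 and 14.7 CPM in Tg untrained ones (log2 fold change 0.25, SE 0.066, adjusted p = 0.180, edgeR). Again no libraries overlapped. Mrpl39, a large subunit protein that bacteria lack, measured 10.1, 10.3, 9.45 and 9.83 CPM in Tg trained libraries, against 8.67, 8.48, 8.28 and 8.41 CPM in Tg untrained ones, with a log2 fold change of 0.23 and an adjusted p of 0.225 (edgeR). Mrpl46, another mitochondrial addition, had the largest fold change of the 78, 0.33 (SE 0.098, adjusted p = 0.241, edgeR). It measured 9.10, 8.98, 8.56 and 8.76 CPM in Tg trained libraries, against 7.30, 7.07, 6.77 and 7.08 CPM in Tg untrained ones, again without overlap. At the other end, Mrpl52 had the lowest log2 fold change, −0.10 (adjusted p = 0.617, edgeR).

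Genes of muscle fibres and of other cell types moved between the same libraries. For training in Tg mice the 8 muscle fibre markers had a median log2 fold change of 0.15 (−0.0706 to 0.376), next to 0.145 for the 78 genes. Their median was 0.184 for training in WT mice and 0.172 averaged over genotypes, against 0.0727 and 0.107 for the 78 genes. The 6 slow-twitch markers summed to 35.1 to 62.8 CPM in Tg trained libraries, against 32.1 to 127.0 CPM in Tg untrained ones, with the high values in replicates 2 and 3. Of the 4 hepatocyte markers 1, Alb, passed the filter, at 0 to 0.0644 CPM in Tg trained libraries, against 0.0363 to 14.97 CPM in Tg untrained ones. The 5 adipocyte markers summed to 60.4 to 70.2 CPM in Tg trained libraries, against 73.96 to 110.1 CPM in Tg untrained ones. The 4 macrophage markers summed to 5.44 to 7.86 CPM, against 6.37 to 12.2 CPM. The part of these cells in the result was not tested. Without the 4 libraries with over 10 CPM of Myh7 the median of the 78 genes in this comparison was 0.0703, with 63 above 0. There 11 genes had an unadjusted p under 0.05, and 26 genes did not overlap, against 10.2% of all genes with the 2 untrained libraries left. Without Tg untrained replicate 3 the median was 0.0985, with 10 genes at an unadjusted p under 0.05 and 23 genes without overlap against 5.97% of all. WT untrained replicate 2 enters this comparison only through the shared spread and the scaling of libraries. Without it Mrps17, Mrpl1 and Mrpl46 were called at adjusted p of 0.0392, 0.0496 and 0.0463 (edgeR). In that fit 93 of all tested genes were called, against 0 in the main analysis. The median of the 78 genes was then 0.141, and 35 had an unadjusted p under 0.05. For fits without libraries the share of all genes at an unadjusted p under 0.05 was not counted.

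**Figure D4:**
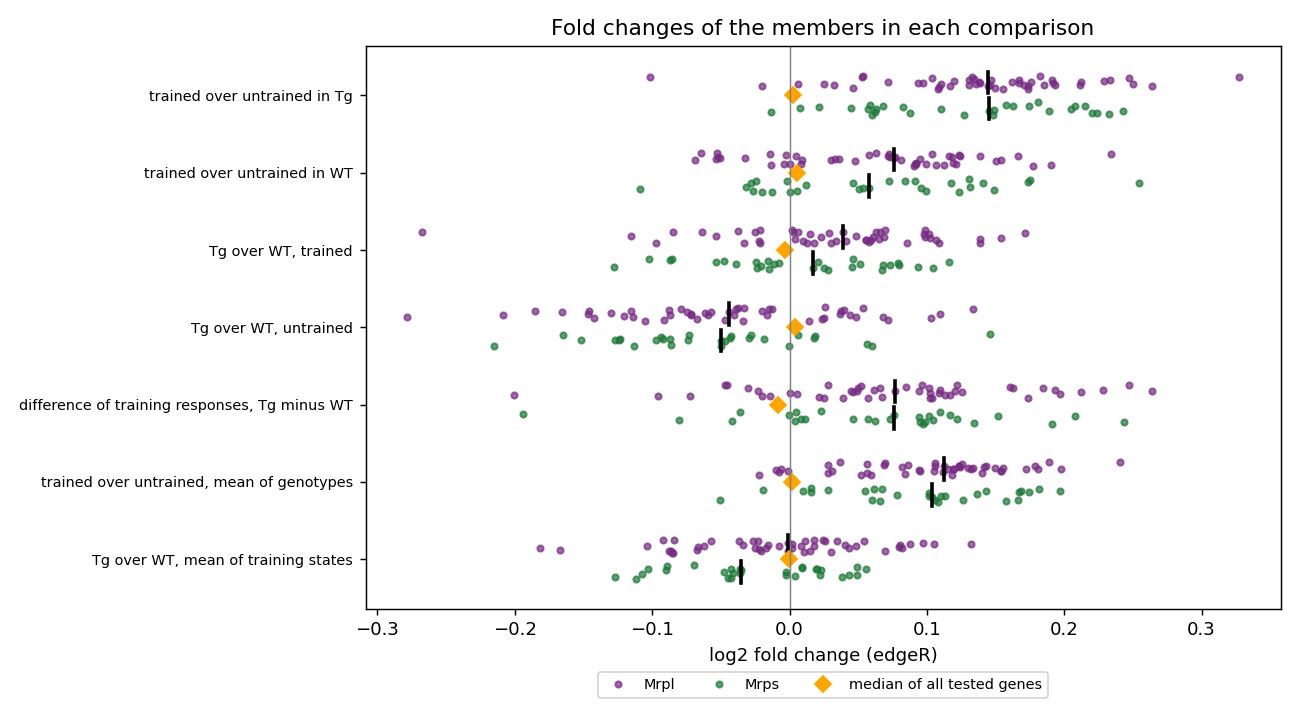
Log2 fold changes from edgeR for the 78 genes in each of 7 comparisons; purple points are Mrpl and green points Mrps genes, black bars their medians, and orange diamonds the median of all tested genes. The points lie mostly right of 0 for training in Tg, with a median of 0.145, and on both sides of it for Tg over WT.

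In WT mice, no gene passed the test between trained and untrained muscle, and the sign of the median turned on 1 library. Of the 78 genes 0 were called, against 0.143% of all tested genes, and 2 (2.56%) had an unadjusted p under 0.05, against 9.55%. DESeq2 called 0 of the 78 and 68 of all tested genes. The median log2 fold change was 0.0727, against 0.0054 over all genes, and 59 genes (75.6%) were above 0, against 51.3% of all. Without WT untrained replicate 2 the median was −0.0147 with 38 genes above 0, and without the libraries with over 10 CPM of Myh7 it was −0.0137. Without the libraries with over 10 CPM of Alb it was 0.0197, and without WT trained replicate 1 it was 0.0341. Mrps17 was the 1 gene without overlap (1.28%, against 2.36% of all genes): it measured 15.1, 14.7, 14.5 and 14.4 CPM in WT trained libraries, against 14.1, 14.1, 12.9 and 14 CPM in WT untrained ones (log2 fold change 0.09, adjusted p = 0.564, edgeR). Mrps34, a small subunit protein that bacteria lack, had the smallest p. It measured 10.99, 12.3, 12.2 and 11.1 CPM in WT trained libraries, against 9.85, 7.84, 10.02 and 11.3 CPM in WT untrained ones (log2 fold change 0.25, SE 0.097, adjusted p = 0.432, edgeR). The groups overlapped through WT untrained replicate 4. Mrps2, a relative of bacterial S2, had a log2 fold change of 0.14 (adjusted p = 0.503) and Mrpl15, a relative of bacterial L15, one of 0.18 (adjusted p = 0.564, edgeR).

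Averaged over both genotypes, 1 of the 78 genes rose with training, Mrps17 (ENSMUSG00000034211, GRCm38 chromosome 5, 129715497 to 129722556, plus strand, overlapping no annotated gene). All 8 trained libraries, between 14.4 and 15.3 CPM, lay above all 8 untrained ones, between 12.3 and 14.1 CPM. Mrps17 was the 1 gene of the 78 for which this held, and the share of all tested genes was not counted. Its log2 fold change was 0.17 (SE 0.034, adjusted p = 0.0420, edgeR), where 80 of 17490 genes (0.457%) were called. The call was lost without 13 of the 16 libraries taken in turn, at adjusted p of 0.0637 to 0.116; it was kept without WT trained replicate 4, WT untrained replicate 2 or Tg untrained replicate 4. It was also lost without a filter on low counts (0.133), with the replicate number as a block (0.0817) and without the libraries high in Myh7 (0.121), at log2 fold changes of 0.15 to 0.17 in all of these. In the same comparison 4 of the 5 adipocyte markers, Adipoq, Cidec, Plin1 and Lep, fell with training, with log2 fold changes of −1.95, −2.02, −1.87 and −2.87 at adjusted p of 0.0339, 0.0277, 0.0451 and 0.0147 (edgeR), and their part in the result for Mrps17 was not tested. Of the 78 genes 21 (26.9%) had an unadjusted p under 0.05, all higher, against 14.4% of all genes in either direction and 6.67% higher. The log2 fold change was above 0 for 71 (91.0%, against 50.5% of all), with a median of 0.107. The median was 0.0331 without the libraries high in Myh7 and 0.0661 without WT untrained replicate 2. Next by p were Mrpl39, with a log2 fold change of 0.17 (adjusted p = 0.115), and Mrpl46, with 0.24 (adjusted p = 0.135, edgeR). Without the 3 libraries high in Alb, 4 of the 78 genes were called: Mrps17, Mrpl39, Mrpl11 and Mrps16. In that fit 584 of all tested genes were called, against 80 in the main analysis.

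**Figure D5:**
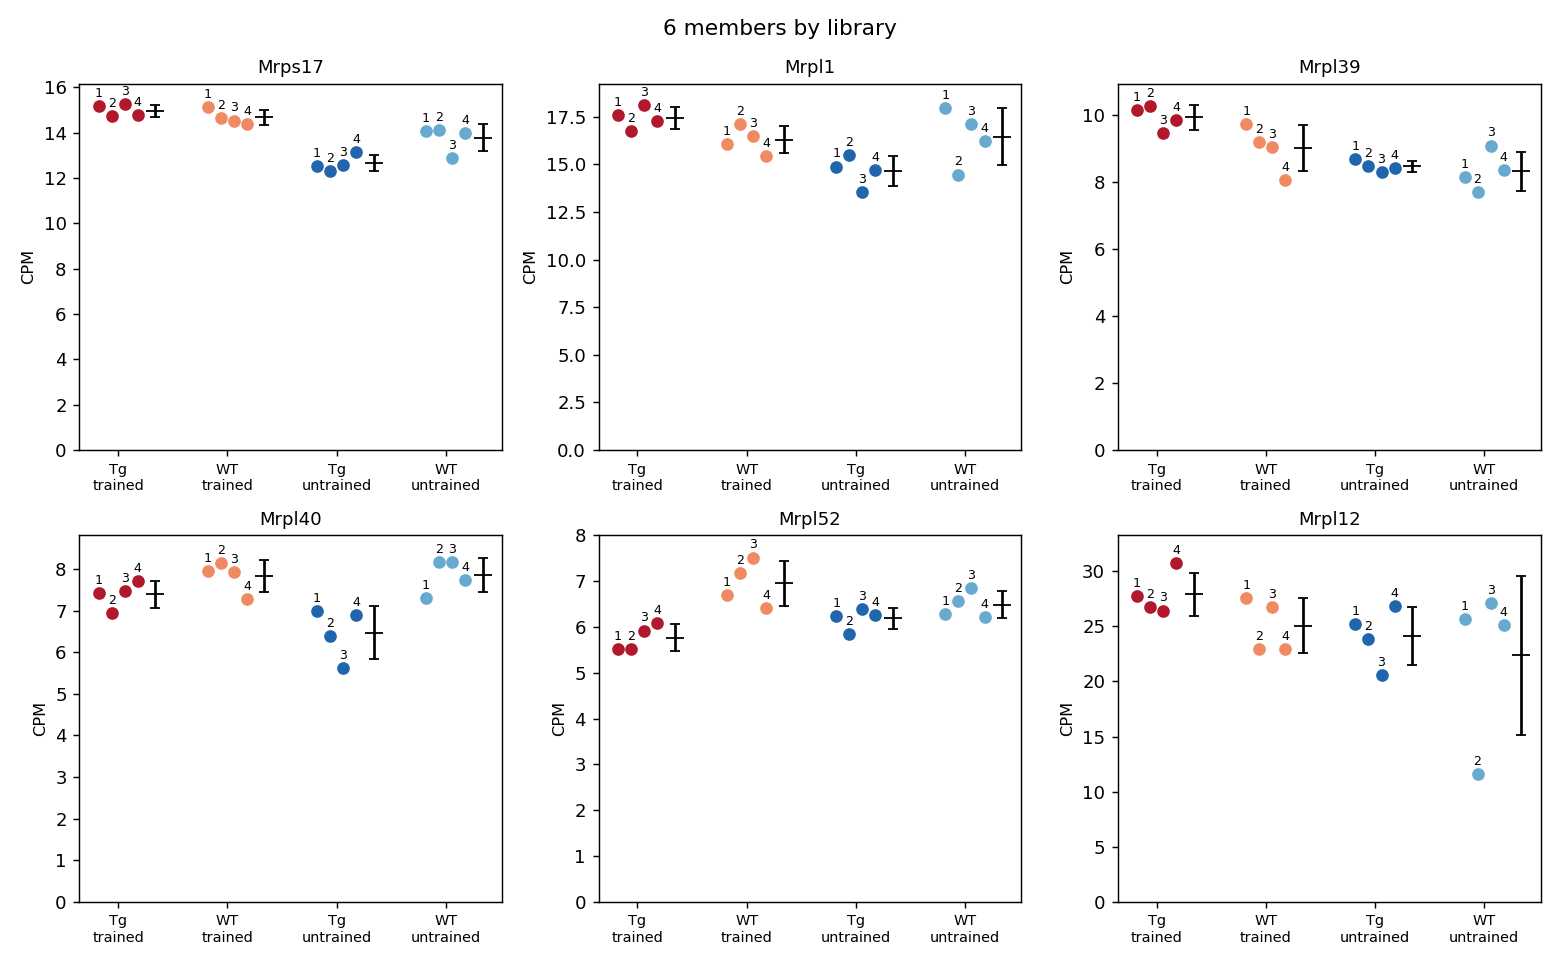
CPM per library of Mrps17, Mrpl1, Mrpl39, Mrpl40, Mrpl52 and Mrpl12 in the 4 groups; numbers are replicates, and bars show the mean and SD of 4 libraries. Mrps17 separates trained from untrained libraries in both genotypes, Mrpl40 is lowest in Tg untrained libraries at 5.61 to 6.98 CPM, and Mrpl12 has a single low library at 11.6 CPM.

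Whether the training response differed between the genotypes was tested as the difference of the 2 log2 fold changes, Tg minus WT. Of the 78 genes 0 were called, against 0.0515% of all genes, and 5 (6.41%) had an unadjusted p under 0.05, against 6.03%. DESeq2 called 0 of the 78 and 35 of all tested genes. The difference was above 0 for 64 genes (82.1%, against 48.5% of all), with a median of 0.0763 against −0.00868 over all genes. It was 0.142 without WT untrained replicate 2, 0.049 without WT trained replicate 4 and 0.0283 without Tg untrained replicate 3. Without WT untrained replicate 2, 21 of the 78 genes had an unadjusted p under 0.05, and the share of all genes there was not counted. In that fit 0 of the 78 were called, against 10 of all genes. Mrpl1 had the smallest p: its log2 fold change with training was 0.25 in Tg and −0.01 in WT mice, a difference of 0.26 (SE 0.094, adjusted p = 0.659, edgeR). Mrpl1 measured 16.1, 17.1, 16.5 and 15.4 CPM in WT trained libraries, against 17.96, 14.5, 17.1 and 16.2 CPM in WT untrained ones, which overlapped. Mrpl10, which carries the stalk of the large subunit, had a difference of 0.21 (adjusted p = 0.782), and Mrps18c, a relative of bacterial S18, one of 0.24 (adjusted p = 0.800, edgeR).

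Without training, Tg muscle had slightly lower values than WT muscle for most of these genes, and none was called. Of the 78, 0 were called, against 0.743% of all genes. At an unadjusted p under 0.05 there were 9 (11.5%), all lower, against 16.2% of all genes and 7.98% lower. The log2 fold change was below 0 for 57 genes (73.1%, against 49.2% of all), with a median of −0.0484 against 0.0042. Without WT untrained replicate 2 the median was −0.11, with 3 genes above 0. In that fit 1 was called, Mrps22, at a log2 fold change of −0.33 (adjusted p = 0.0431, edgeR), where 122 of all genes were. Without Tg untrained replicate 3 the median was −0.018, and without WT untrained replicate 4 it was −0.0222. Without the libraries high in Alb it was −0.0972, with 3 genes above 0. Mrpl40, a large subunit protein that bacteria lack, measured 6.98, 6.39, 5.61 and 6.90 CPM in Tg untrained libraries, against 7.31, 8.18, 8.16 and 7.73 CPM in WT untrained ones. The groups did not overlap, and the log2 fold change of −0.28 (SE 0.073) had an adjusted p of 0.0867 in edgeR and 0.0406 in DESeq2. Mrpl32 was the other gene without overlap in this direction (2 of 78, 2.56%, against 4.16% of all). Mrps17 had a log2 fold change of −0.12 (adjusted p = 0.223) and Mrps18a one of −0.15 (adjusted p = 0.224, edgeR). The 6 slow-twitch markers summed to 32.1 to 127.0 CPM in Tg untrained libraries, against 23.5 to 43.5 CPM in WT untrained ones. The 8 muscle fibre markers had a median log2 fold change of 0.0147, and that of Myh2, a myosin among them, was 1.44 (adjusted p = 0.0697, edgeR). For Tg over WT with training that of Myh2 was 1.34. Averaged over training states it was 1.39, and Myh2 was called (adjusted p = 0.0203, edgeR). The part of these markers in the values of the 78 genes was not tested.

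With training, the median log2 fold change of Tg over WT muscle was 0.0283 over the 78 genes, 52 of them above 0 (66.7%, against 49.1% of all). Of the 78 genes 0 were called, against 0.0114% of all genes, and 2 (2.56%) had an unadjusted p under 0.05, against 7.98%. DESeq2 called 0 of the 78 and 54 of all tested genes. The median was 0.0606 without WT trained replicate 1, 0.0112 with 40 genes above 0 without WT trained replicate 4, and 0.0128 with 40 above 0 without the libraries high in Alb. Mrpl52, a large subunit protein that bacteria lack, had the smallest p. It measured 5.52, 5.53, 5.92 and 6.10 CPM in Tg trained libraries, against 6.70, 7.18, 7.52 and 6.41 CPM in WT trained ones. No libraries overlapped, as for 2.76% of all genes in this direction, and the log2 fold change was −0.27 (SE 0.066, adjusted p = 0.313, edgeR). Mrpl9, a relative of bacterial L9, was the 1 gene for which every Tg trained library lay above every WT trained one (1.28%, against 2.94% of all genes). It measured 23.9, 22.2, 21.5 and 22.4 CPM in Tg trained libraries, against 21.1, 19.4, 21.4 and 17.98 CPM in WT trained ones, with a log2 fold change of 0.17, and that of Mrpl39 was 0.14. Averaged over both training states the median of Tg over WT was −0.0026, with 36 genes above 0 (46.2%, against 49.8% of all). In edgeR 0 were called, against 1.12% of all genes, and DESeq2 called 0 of the 78 and 639 of all tested genes. At an unadjusted p under 0.05 in edgeR there were 5 (6.41%), all lower, against 17.2% of all genes and 8.89% lower. This median changed with the libraries used. It was −0.041 without WT untrained replicate 2, with 13 genes above 0 and 11 at an unadjusted p under 0.05. Without the libraries high in Alb it was −0.0522, with 10 above 0 and 18 at an unadjusted p under 0.05. The share of all genes at that p was not counted in these fits, where 351 and 215 of all genes were called. The median over the 78 also changed sign. It was above 0 without WT trained replicate 1, Tg trained replicate 3, WT untrained replicate 4 or Tg untrained replicate 3, at 0.00289 to 0.0142. In these alternatives 0 of the 78 were called. Mrpl52 had a log2 fold change of −0.17 (adjusted p = 0.0853) and Mrpl40 one of −0.18 (adjusted p = 0.0886, edgeR) in that average. Mrpl52 averaged 6.19 ± 0.230 CPM in Tg untrained and 6.48 ± 0.296 CPM in WT untrained libraries (SD, n = 4 each), which overlapped.

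By role, the stalk of the large subunit, which recruits the translation factors, is made by Mrpl12 on a base of Mrpl10 and Mrpl11, and the Mrpl12 protein is also known to bind the mitochondrial RNA polymerase. Mrpl12 measured 27.7, 26.8, 26.4 and 30.7 CPM in Tg trained libraries and 27.6, 23.0, 26.8 and 23.0 CPM in WT trained ones. It measured 25.2, 23.8, 20.6 and 26.8 CPM in Tg untrained libraries and 25.7, 11.6, 27.1 and 25.1 CPM in WT untrained ones. The value of 11.6 CPM, in WT untrained replicate 2, was the lowest by far, and the groups otherwise overlapped. Mrpl10 measured 12.6 to 14.6 CPM in Tg trained, against 10.8 to 12.2 CPM in Tg untrained libraries, while WT libraries lay at 11.7 to 13.2 CPM with training and 11.7 to 12.97 CPM without. Mrpl11 averaged 14.2 ± 0.244 CPM in Tg trained and 12.9 ± 0.444 CPM in Tg untrained libraries, and 14.8 ± 1.43 CPM in WT trained and 13.6 ± 0.393 CPM in WT untrained libraries (SD, n = 4 each). The log2 fold change with training was 0.21 for Mrpl10 and 0.15 for Mrpl11 in Tg mice, and 0.00 and 0.12 in WT mice (adjusted p of 0.234, 0.406, 1 and 0.564, edgeR). Mrps12, a relative of bacterial S12 at the decoding centre of the small subunit, measured 9.46 to 10.6 CPM in Tg trained, 9.96 to 10.5 in WT trained, 8.34 to 10.2 in Tg untrained and 9.09 to 11.02 CPM in WT untrained libraries, so all groups overlapped.

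Changes in human MRPL3, MRPL44, MRPS16 and MRPS22 are known to cause inherited defects of oxidative phosphorylation. Mrpl44 averaged 12.3 ± 0.621 CPM in Tg trained, 11.7 ± 0.609 in WT trained, 10.9 ± 0.997 in Tg untrained and 11.2 ± 1.40 CPM in WT untrained libraries. Mrps16 averaged 13.6 ± 0.381, 12.9 ± 0.780, 11.8 ± 0.515 and 11.8 ± 1.86 CPM in the same groups. Mrps22 averaged 7.48 ± 0.254 CPM in Tg trained, 7.53 ± 0.486 in WT trained, 6.48 ± 0.375 in Tg untrained and 7.53 ± 1.27 CPM in WT untrained libraries (SD, n = 4 each). Mrps16 and Mrps22 were among the genes without overlap between Tg trained and Tg untrained libraries, whereas Mrpl44 and Mrpl3 overlapped there. Mrpl3 had log2 fold changes with training of 0.05 in Tg and 0.09 in WT mice (adjusted p of 0.914 and 0.817, edgeR). Mrps27, a small subunit protein of the pentatricopeptide repeat family, measured 12.1 to 12.6 CPM in Tg trained libraries, against 8.88 to 11.8 CPM in Tg untrained ones. Its log2 fold change was 0.21 (adjusted p = 0.463, edgeR), and the lowest Tg untrained value was that of replicate 3.

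Mammals have a trio of S18 relatives. The products of Mrps18b and Mrps18c are both part of the small subunit, and that of Mrps18a is part of the large one despite its name. Mrps18a had a mean of 20.9 ± 1.15 CPM in Tg trained, 21.7 ± 1.19 in WT trained, 19.3 ± 1.07 in Tg untrained and 21.5 ± 0.768 CPM in WT untrained libraries. Mrps18b had one of 15.6 ± 1.02, 15.4 ± 0.700, 13.7 ± 0.621 and 14.6 ± 0.888 CPM, and Mrps18c one of 6.99 ± 0.316, 6.61 ± 0.624, 5.99 ± 0.447 and 6.71 ± 0.319 CPM (SD, n = 4 each, same order of groups). The Tg untrained mean was the lowest of the 4 for each of the 3 genes. The log2 fold change with training in Tg mice was 0.11 for Mrps18a, 0.19 for Mrps18b and 0.22 for Mrps18c, at adjusted p of 0.518, 0.294 and 0.299 (edgeR). Mrps30, also part of the large subunit, averaged 12.54 ± 0.418 CPM in Tg trained, 12.7 ± 0.422 in WT trained, 12.2 ± 1.04 in Tg untrained and 12.8 ± 0.931 CPM in WT untrained libraries, with a log2 fold change with training of 0.04 in Tg mice (adjusted p = 0.853, edgeR). Mrps36, the dehydrogenase component, measured 20.7, 20.7, 19.8 and 19.7 CPM in Tg trained libraries, against 17.9, 17.9, 14.9 and 18.7 CPM in Tg untrained ones. These did not overlap (log2 fold change 0.22, SE 0.126, adjusted p = 0.554, edgeR). Mrpl58, a peptide release factor built into the large subunit, had a log2 fold change with training of 0.15 in Tg and 0.07 in WT mice (adjusted p of 0.649 and 0.854, edgeR).

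Other genes of mitochondrial translation were described from lists chosen with earlier results of these data known, and 0 genes of the lists named here were called in any of the 7 comparisons. For training in Tg mice the 5 tested components of the mitochondrial ribosome with other names had a median log2 fold change of 0.125, 5 of 5 above 0. Chchd1, a small subunit protein, averaged 27.7 ± 1.19 CPM in Tg trained and 24.8 ± 1.27 CPM in Tg untrained libraries (SD, n = 4 each), with a log2 fold change of 0.16 (adjusted p = 0.381, edgeR). Assembly and rRNA modification factors had a median of 0.127 (24 of 29 above 0), translation factors one of 0.116 (19 of 20) and mitochondrial aminoacyl-tRNA synthetases one of 0.0944 (19 of 22). Mtif2, the initiation factor, had a log2 fold change of 0.25 (adjusted p = 0.238, edgeR). The ribosomal RNAs mt-Rnr1 and mt-Rnr2 had log2 fold changes of 0.17 and 0.19 (adjusted p of 0.779 and 0.782, edgeR). The 13 protein genes of mitochondrial DNA had a median of 0.343, with 12 above 0. The 79 cytosolic ribosomal protein genes had a median of 0.015, with 50 above 0, next to 0.00237 for all genes. Their median for Tg over WT without training was −0.109, against −0.0484 for the mitochondrial ones.

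Among 12 regulators of mitochondrial biogenesis, the median for training in Tg mice was −0.0234, with 5 above 0, and 0 were called. Ppargc1a, the coactivator PGC-1alpha, measured 36.1, 35.7, 37.4 and 33.3 CPM in Tg trained and 32.0, 33.2, 51.8 and 58.9 CPM in WT trained libraries. It measured 26.9, 29.8, 27.3 and 30.7 CPM in Tg untrained and 31.0, 17.6, 35.3 and 31.9 CPM in WT untrained libraries. The Tg groups did not overlap, as for 4.65% of all genes in this direction. The lowest adjusted p of the 12 regulators for training in Tg mice was 0.524, that of Pprc1 (edgeR). In WT mice the trained libraries were high for Ppargc1a in replicates 3 and 4 only, and its log2 fold change was 0.60 (adjusted p = 0.374, edgeR). The genes of the factors whose letters were searched differed less. Nrf1 averaged 7.11 ± 0.113 CPM in Tg trained and 7.43 ± 0.704 CPM in Tg untrained libraries, and Gabpa 21.1 ± 1.03 and 21.7 ± 2.16 CPM (SD, n = 4 each). The 13 genes with NRF1 letters had a median log2 fold change with training in Tg mice of 0.167 and the 56 without one of 0.142. For GABPA letters the medians were 0.129 with and 0.146 without, and for YY1 letters 0.157 and 0.145.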

How the data were processed

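Libraries were made from column-purified muscle RNA with a SMARTer mRNA-seq kit, per the labels' protocols. The submitters' processing notes name STAR 2.7.8a, RSEM 1.3.2 and the mm10 build; no source used here gives the annotation release. The deposited values are RSEM expected counts per gene, not normalized; 12.48% were not whole, and they were rounded. RSEM shares reads among similar genes; the 6 pseudogene symbols together held at most 743 counts in a library.

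The 4 groups were fitted together over 16 libraries by edgeR's quasi-likelihood method (version 4.0.16, under R 4.3.3) after TMM and filterByExpr by group, with 7 contrasts and Benjamini-Hochberg adjustment over 17490 genes. A gene was called at an adjusted p under 0.05. The method was tested on simulated counts with planted changes larger than any fold change of the mitochondrial ribosomal protein genes. That run does not show how often changes as small as theirs would be found. The biological coefficient of variation was 14.14%. Counts of replicates differed beyond sampling noise (chi-square per degree of freedom at least 7.06).

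The 78 genes and all lists were chosen with earlier results of these data known. Full statistics were given for called genes, the 3 with the smallest p per contrast and genes chosen by role; those named for lack of overlap were chosen after their values were seen. Positions are those of GENCODE (GRCm38), matched by identifier, and levels per kilobase use the median length of its coding transcripts. Alternatives were RLE factors, other filters, robust dispersion, a replicate block, limma-voom 3.58.1, DESeq2 1.42.0, removal of mitochondrial rRNA and 7SL RNA, the 8 libraries of a contrast alone, and leaving out each library, the 3 above 10 CPM of Alb or the 4 above 10 CPM of Myh7. Levels with shortest transcripts and overlap without doubted libraries were added after seeing the data.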

Additional observations from a re-analysis of the deposited data

Results flagged for a closer look

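Among groups of 4 libraries tested with Dixon's criterion, 9 of 112 had a single library far from the other 3. Chance gives about 1 in 20 for a single group, but the 112 share libraries and are not independent. Of the 9, 7 were WT untrained replicate 2. It was low in the Mrpl sum (639.2 CPM, against 823.5 to 830.2 CPM in the other WT untrained libraries) and in the Mrps sum (335.1 CPM, against 393.2 to 402.3 CPM). It was also low for Mrpl12 (11.59 CPM), Mrpl44 (9.066 CPM), Mrpl46 (5.724 CPM), Mrps16 (8.995 CPM) and Mrps36 (11.48 CPM). The same library had the lowest sum of muscle fibre markers, 123900 CPM, and the highest TMM factor, 1.285. In Tg untrained replicate 3 the ratio of the Mrpl to the Mrps sum was 2.015, below the other 3 libraries of its group. Mrps17 in WT untrained replicate 3 was at 12.9 CPM, below the 14 to 14.1 CPM of the other WT untrained libraries.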

How the results depend on the processing

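Of the 946 values recomputed under an alternative, 891 kept direction and side of the threshold or moved by less than the spread between libraries. That spread, the SD within groups of the mean log2 level of the 78 genes, was 0.0913. Some medians of the main analysis were smaller than it, so they could change sign and still be among the 891. This count therefore does not show that those medians held. The sign changed for 8 values, all of them medians over the 78 genes. For training in WT mice (0.0727 in the main analysis) it did so in 2 cases, −0.0147 without WT untrained replicate 2 and −0.0137 without the libraries high in Myh7. For Tg over WT averaged over training states (−0.0026) it did so in 6: 0.00572 with a CPM of at least 1 in 4 libraries, 0.000184 with DESeq2, and 0.00289 to 0.0142 without single libraries. Counts of called genes among the 78 changed as follows. For training in Tg mice, 0 in the main analysis, DESeq2 gave 1, the 8 libraries alone 1, leaving out the libraries high in Alb 2, and leaving out single libraries 0 to 3. For Tg over WT without training, also 0, DESeq2 gave 1 and leaving out single libraries 0 to 1. For training averaged over genotypes, 1 in the main analysis, no filter gave 0, the replicate block 0, leaving out libraries high in Alb 4, leaving out those high in Myh7 0, and leaving out single libraries 0 to 3. In the other 4 comparisons the count was 0 under every alternative run. Over all tested genes DESeq2 called 126 for training in Tg mice, against 0 by edgeR, and 442 for Tg over WT without training, against 130. Calls over all genes also changed with the libraries used. For training in Tg mice the 8 libraries alone gave 123, leaving out libraries high in Alb 104, and leaving out single libraries 0 to 93. For training averaged over genotypes leaving out libraries high in Alb gave 584 and leaving out single libraries 15 to 389, against 80. The labels do not say whether replicate numbers pair the libraries, and they were not treated as pairs in the main analysis. Of 24 same-number pairs 9 had a correlation of deviations over 0.1 (range −0.216 to 0.277). Pairs with different numbers were not compared with them, so pairing was not tested. The replicate block moved the calls for training averaged over genotypes to 16 genes, against 80. Summed CPM were higher with mitochondrial rRNA and 7SL removed, for example 1348 in place of 841.7 for Mrpl genes in Tg trained libraries. Depth was at least 116 counts for each of the 78 genes in every library.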
